A study of Mus musculus with 8 samples.

Results

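Gdf5, Bmpr1b, Nog and Prg4 are the 4 joint and bone morphogenetic protein (BMP) pathway genes described here, out of 739 genes in the deposited tables of a limb bud RNA-seq study. They were chosen by symbol, as every row of any of the 4 tables that carried 1 of these names. The tables hold genes that the authors called different between genotypes, and all 4 symbols were found. The levels across sorted fraction, genotype and limb are the subject. The listing used the genotype contrast and neither of the other 2. The fraction comparison still shares the GFP-negative libraries in which all 4 genes were listed, and for Nog the GFP-positive libraries as well.

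The libraries came from C57BL/6 mouse limb buds at E13.5. The control genotype (WT) was Sox9+/IRES-EGFP, with a green fluorescent reporter behind 1 normal Sox9 allele. The mutant genotype (Y440X) was Sox9+/Y440X-IRES-EGFP, with the same reporter behind an allele in which a tyrosine codon is changed to a stop, a mutation known from campomelic dysplasia. All animals therefore carried 1 tagged and 1 untagged Sox9 allele. The header lines of the deposited tables name the control Sox9+/+, which would carry no reporter, so the genotype of the series' design text was used. Buds were pooled, 4 to 6 pairs per genotype with forelimb and hindlimb kept apart, digested and sorted by GFP. This gave 8 libraries in 4 groups: WT GFP-positive, Y440X GFP-positive, WT GFP-negative and Y440X GFP-negative, each with 1 forelimb and 1 hindlimb library (n = 2). The gate follows transcription of the tagged Sox9 allele, so fraction is not a cell type. Each genotype was 1 set of pools, and pool and genotype cannot be told apart.

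GDF5 is a secreted ligand of the BMP family that marks the interzone, the band of cells where a limb joint will form. It signals mainly through BMPR1B, a type I receptor kinase that also acts in the early cartilage condensation, together with type II receptors such as BMPR2. Noggin, the product of Nog, binds BMP and GDF ligands outside the cell and keeps them from their receptors, and mice without it form oversized cartilage and lack joints. Prg4 encodes lubricin, the surface lubricant that joint-lining cells make as the joint matures.

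The 4 genes lie on 4 chromosomes of the GRCm38 build (GENCODE M21), all on the minus strand. Gdf5 spans chr2:155941023-155945367 in 2 exons, and 1 annotated gene of the opposite strand, Gm15557, overlaps its exons. Nog is a single-exon gene at chr11:89300638-89302332. Bmpr1b spans chr3:141837136-142169425 with 5 annotated transcripts of 11 or 12 exons. Prg4 spans chr1:150449412-150466165 with 8 annotated transcripts, and its exons are overlapped on the opposite strand by Tpr. The libraries were stranded, but the sources used here do not give the strand setting of the authors' counting, so reads of Gdf5 and Prg4 cannot be separated from those overlapping genes. The deposited lengths used for per-kilobase values were 2315 bases for Gdf5, 5830 for Bmpr1b, 1922 for Nog and 4278 for Prg4. For Nog that length exceeds the 1695 bases of the GENCODE span, so it is not the length of this annotation. Per-kilobase values and ratios of Nog depend on the length used.

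RefSeq's promoter table (GRCm38.p6) held windows for 1 of the 4 genes, Bmpr1b, and had no entry for Gdf5, Nog and Prg4. The stretch shown is the Bmpr1b window whose downstream end lies in an annotated GENCODE transcript. It was searched for SOX motif letters, which also occur in the other 2 Bmpr1b windows. It runs on the minus strand over chr3:141982255-141982514, from 250 bases before the start to 10 bases after it, and capitals mark ACAAAG or ACAATG, core letters of the SOX HMG-box motif, on either strand:
Bmpr1b: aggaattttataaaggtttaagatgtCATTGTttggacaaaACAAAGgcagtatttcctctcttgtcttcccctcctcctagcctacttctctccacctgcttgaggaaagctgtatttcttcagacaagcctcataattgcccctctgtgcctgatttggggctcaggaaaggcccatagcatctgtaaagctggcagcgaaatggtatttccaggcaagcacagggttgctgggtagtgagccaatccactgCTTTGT
Relative to the start, the window held ACAAAG from position -209, its reverse complement CTTTGT from position 4, and CATTGT, the reverse complement of ACAATG, from position -224. These matches do not overlap each other. Of the 32851 promoter windows of 300 bases in the table, 18.7% held ACAAAG and 12.6% held ACAATG on either strand. GGCGCC, a GC-rich element bound by BMP SMAD proteins, occurred in 11.9% of windows and its letters are not in the 3 Bmpr1b windows. The other 2 Bmpr1b windows overlap each other and share 1 CTTTGT. A match of letters is a description and not a bound site.

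Counts were divided by effective library sizes of 38842000 to 50717000 reads, which were solved from the authors' averages, and are given as counts per 1000000 reads (CPM). A gene at 1 CPM thus rests on 38.8 to 50.7 reads. Sox9, the targeted gene, was measured from both alleles together. It stood at 1063 and 916 CPM in the forelimb and hindlimb GFP-positive libraries of WT and at 471 and 555 CPM in those of Y440X. In GFP-negative libraries it stood at 97.1 and 72.5 CPM in WT and at 18.0 and 22.0 CPM in Y440X. The fractions did not overlap, and within each fraction all Y440X libraries lay below all WT libraries.

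All 4 genes were most abundant inside the Sox9 reporter gate. Gdf5, the interzone ligand, reached 137 and 132 CPM in the forelimb and hindlimb libraries of WT GFP-positive cells, against 26.0 and 21.4 CPM in WT GFP-negative cells. In Y440X it was at 132 and 158 CPM inside the gate and at 10.4 and 10.3 CPM outside it. The GFP-positive libraries of the 2 genotypes overlapped, while outside the gate all Y440X libraries lay below all WT libraries.

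Bmpr1b, the type I receptor, was at 179 and 133 CPM in forelimb and hindlimb GFP-positive cells of WT, and at 108 and 88.6 CPM in those of Y440X. Outside the gate it was at 31.1 and 22.2 CPM in WT and at 11.4 and 10.8 CPM in Y440X. None of its 4 groups overlapped, and the forelimb value was the higher of the pair in each. Its type II partner Bmpr2 was spread far more evenly over the sort, at 298 and 286 CPM in WT GFP-positive, 194 and 189 in Y440X GFP-positive, 257 and 258 in WT GFP-negative and 128 and 128 CPM in Y440X GFP-negative cells.

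Nog, the antagonist, was at 196 and 184 CPM in WT GFP-positive cells and at 44.9 and 61.8 CPM in Y440X GFP-positive cells. Outside the gate it was at 25.6 and 27.4 CPM in WT and at 13.2 and 11.9 CPM in Y440X. Its 4 groups also did not overlap, and the Y440X GFP-positive libraries stood closer to the WT GFP-negative libraries than to the WT GFP-positive ones.

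Prg4, the lubricin gene, was far less abundant. It was at 5.72 and 7.47 CPM (222 and 321 reads) in WT GFP-positive cells and at 5.90 and 11.7 CPM (271 and 530 reads) in Y440X GFP-positive cells, which overlapped. Outside the gate the WT libraries held 1.86 and 2.10 CPM (87 and 93 reads). The Y440X libraries held 0.710 and 0.460 CPM, on 36 and 22 reads, with exact Poisson 95% intervals of 0.497 to 0.983 and 0.288 to 0.697 CPM that cover counting error only.

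**Figure D1:**
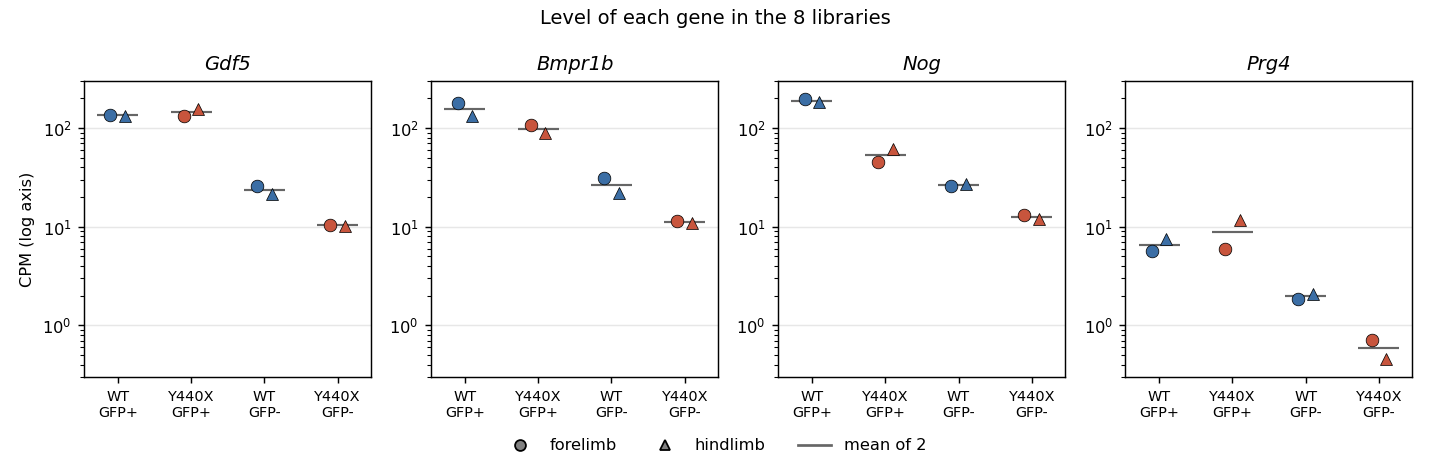
CPM on a log axis of Gdf5, Bmpr1b, Nog and Prg4 in the 8 libraries, with circles for forelimb, triangles for hindlimb and a line at the mean of each group of 2. Inside the gate Gdf5 held at 132 to 158 CPM in both genotypes while Nog ran from 184 to 196 CPM in WT and from 44.9 to 61.8 CPM in Y440X.

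Per kilobase of gene the order of the 4 genes was the same in 3 of the 4 groups. Mean CPM per kilobase (RPKM) in WT GFP-positive cells were 98.7 ± 4.57 for Nog, 58.2 ± 1.42 for Gdf5, 26.8 ± 5.64 for Bmpr1b and 1.54 ± 0.289 for Prg4 (SD, n = 2 each). In Y440X GFP-positive cells Gdf5 came first at 62.5 ± 7.99 RPKM, ahead of Nog at 27.8 ± 6.19, Bmpr1b at 16.9 ± 2.39 and Prg4 at 2.06 ± 0.962 RPKM. In GFP-negative cells Nog led again, with 13.8 ± 0.646 RPKM in WT and 6.54 ± 0.458 in Y440X against 10.2 ± 1.40 and 4.46 ± 0.0360 RPKM for Gdf5. Bmpr1b followed there at 4.57 ± 1.08 and 1.90 ± 0.0704 RPKM, and Prg4 was last at 0.463 ± 0.0410 and 0.137 ± 0.0412 RPKM. Neighbours in these orders did not overlap between their 2 libraries in any group.

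The first comparison asked how the genes divide between cells that transcribe the tagged Sox9 allele and the rest of the limb bud. All 4 were higher in GFP-positive cells in both genotypes. Both fraction contrasts use the GFP-negative libraries, where all 4 genes were listed as lower in Y440X. Such a choice tends to enlarge the fraction difference in Y440X and shrink it in WT. Nog was also listed as lower in Y440X GFP-positive cells, and that choice tends to act the other way. The net direction for Nog is therefore not known. The fraction p-values are therefore not independent of how the genes were chosen. In WT, Nog was 7.16-fold higher (log2 2.84 ± 0.25 SE; edgeR's quasi-likelihood test, Benjamini-Hochberg adjusted p = 1.4e-10 over 739 genes), and Bmpr1b was 5.85-fold higher (log2 2.55 ± 0.26, edgeR adjusted p = 2.4e-09). Gdf5 was 5.68-fold higher (log2 2.50 ± 0.25, edgeR adjusted p = 1.1e-09) and Prg4 was 3.33-fold higher (log2 1.74 ± 0.28, edgeR adjusted p = 2.5e-06). Of the 739 genes, 30.3% passed the same test in this direction, with a median log2 difference of -0.84 over all genes and 2.53 over the 4.

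In Y440X the estimates were larger than in WT for Gdf5, Bmpr1b and Prg4 and smaller for Nog, a difference that the interaction below tests. Prg4 was 14.9-fold higher inside the gate (log2 3.90 ± 0.39, edgeR adjusted p = 1.8e-06) and Gdf5 was 14.0-fold higher (log2 3.81 ± 0.20, edgeR adjusted p = 1.3e-08). Bmpr1b was 8.88-fold higher (log2 3.15 ± 0.21, edgeR adjusted p = 7.4e-08) and Nog 4.24-fold higher (log2 2.09 ± 0.23, edgeR adjusted p = 4.8e-06). The size of the Prg4 difference depended on the added constant: with limma on log2(RPKM + 1) it was 0.79 in WT and 1.39 in Y440X, and on log2(RPKM + 0.1) it was 1.53 and 3.12. With DESeq2's own size factors the WT differences rose to between 2.34 for Prg4 and 3.45 for Nog. The edgeR test called 27.9% of all genes higher in this fraction, with a median of -0.26 over all genes and 3.48 over the 4. The receptor partner Bmpr2 did not pass in WT (log2 0.18 ± 0.27, edgeR adjusted p = 0.54) and rose by 1.50-fold in Y440X GFP-positive over GFP-negative cells (log2 0.59 ± 0.18, edgeR adjusted p = 0.013).

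In WT the 4 genes nevertheless kept more of their level outside the gate than cartilage matrix genes did. The GFP-negative level of Gdf5 was 19.0% of the GFP-positive level in forelimb and 16.2% in hindlimb. Nog stood at 13.1% and 14.9%, Bmpr1b at 17.3% and 16.7%, and Prg4 at 32.5% and 28.2%. Sox9 itself stood at 9.13% and 7.92%, and the 11 cartilage markers in the tables, among them Col2a1 and Acan, between 0.267% and 2.14% with a median of 0.795%. In Y440X the shares were 7.90% and 6.51% for Gdf5, 10.5% and 12.2% for Bmpr1b, 12.0% and 3.93% for Prg4, and 29.3% and 19.3% for Nog. The Y440X cartilage markers ranged from 0.142% to 4.68% with a median of 1.70%, so the hindlimb value of Prg4 lay within their range and the other 7 values lay above it. Sox9 in Y440X stood at 3.82% in forelimb and 3.96% in hindlimb, also within that range. These shares are a description of levels and were not tested against each other. In bulk libraries fewer cells of a type and less RNA per cell cannot be told apart.

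**Figure D2:**
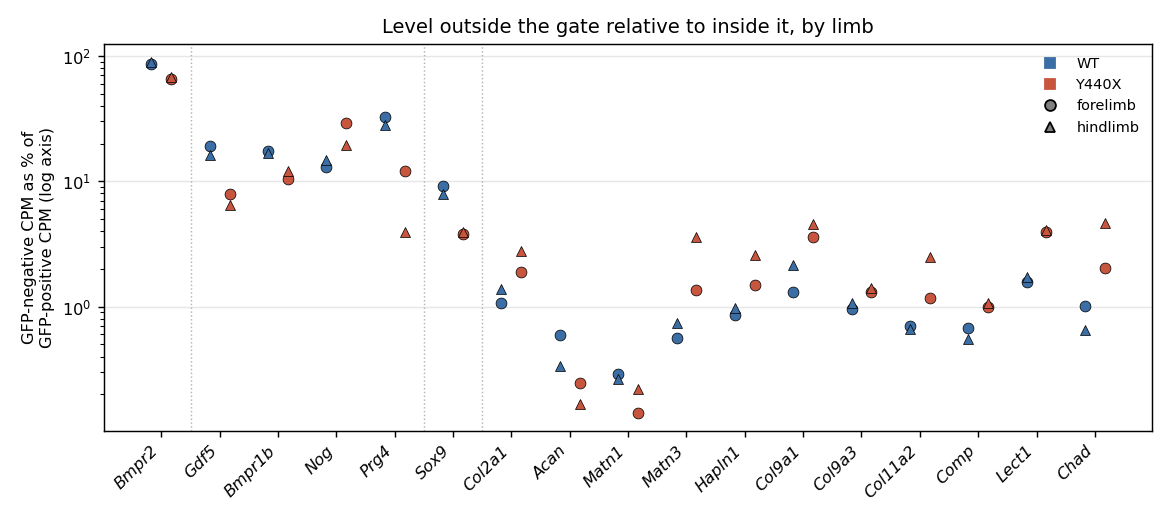
GFP-negative CPM as a percentage of GFP-positive CPM in the same limb (log axis) for Bmpr2, the 4 genes, Sox9 and 11 cartilage markers, in WT (blue) and Y440X (red), with circles for forelimb and triangles for hindlimb. In WT the 4 genes sit between 13.1% and 32.5%, Bmpr2 between 86.2% and 90.1%, and the cartilage markers at or below 2.14%.

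The genotype comparison set Y440X libraries against WT libraries within each fraction, where pool and genotype cannot be told apart. Inside the gate the antagonist Nog was lower in Y440X, the receptor Bmpr1b passed the test as lower in a call that did not hold in several other fits, and the ligand Gdf5 and the joint gene Prg4 did not pass. The 4 genes were not tested against each other. Nog fell to 22.9% of the WT level in forelimb and to 33.7% in hindlimb, 3.56-fold lower over both limbs (log2 -1.83 ± 0.25, edgeR adjusted p = 4.0e-06). The authors' deposited table lists Nog for this fraction with a false discovery rate (FDR) of 0.00189, so this contrast chose it and the value is a description. Bmpr1b, Gdf5 and Prg4 are not listed for GFP-positive cells.

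Bmpr1b in Y440X GFP-positive cells was at 60.5% of WT in forelimb and 66.8% in hindlimb, 1.58-fold lower (log2 -0.66 ± 0.26, edgeR adjusted p = 0.031). Adjusted over the 436 genes that are not listed for this fraction, the same test gave an edgeR adjusted p = 0.080, and the call was lost without the WT forelimb library (log2 -0.43) or either Y440X library (-0.82 and -0.53), with edgeR adjusted p from 0.044 to 0.265 over the 4 fits. Its partner Bmpr2 was at 65.2% and 66.2% of WT (log2 -0.61 ± 0.26, edgeR adjusted p = 0.048). Bmpr2 is not listed for this fraction either, and its unadjusted edgeR p (0.026) was larger than that of Bmpr1b (0.016). Adjusted over the 436 unlisted genes, Bmpr2 would therefore not pass either. Gdf5 was at 96.1% and 119% of WT (log2 0.10 ± 0.25, 95% interval -0.39 to 0.59, edgeR adjusted p = 0.75). That interval holds changes from 0.766 to 1.51 times the WT level. Prg4 was at 103% and 157% of WT (log2 0.42 ± 0.29, 95% interval -0.15 to 0.98, edgeR adjusted p = 0.23), and the difference came mainly from hindlimb: without that Y440X library its log2 value was -0.16, and without the forelimb Y440X library 0.83 (edgeR adjusted p = 0.016).

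The edgeR test called 55.9% of the 739 genes in GFP-positive cells in either direction and 40.1% as lower, and 2 of the 4 genes, Nog and Bmpr1b, as lower. The count of 2 of 4 is near these shares. Of the 436 genes not listed there it called 12.4%, with 0 of the 3 genes among them; 1 of the 3, Bmpr1b, had an unadjusted edgeR p under 0.05. These p-values rest on the library scaling. With TMM factors computed over the listed genes, which moved the median gene by 0.65 on the log2 scale, Gdf5 was at 0.78 and Prg4 at 1.09, both called higher, Bmpr1b at 0.0079 and Nog at -1.15. DESeq2 with its own size factors put Nog at -1.23 and Bmpr1b at -0.073.

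Outside the gate all 4 genes were lower in Y440X and all are listed there by the authors, so these values describe the choice and carry no test. Gdf5 in GFP-negative cells was at 39.9% of WT in forelimb and 48.0% in hindlimb (log2 -1.20 ± 0.19). Nog was at 51.5% and 43.7% (log2 -1.08 ± 0.17) and Bmpr1b at 36.6% and 48.6% (log2 -1.27 ± 0.21). Prg4 was at 38.3% and 21.9% (log2 -1.75 ± 0.32, or -0.36 with limma on log2(RPKM + 1)). By edgeR's value over both limbs Prg4 was the lowest of the 4, as it was in hindlimb, while Bmpr1b was lowest in forelimb. Of all 739 genes 67.3% were called lower in this fraction, with a median log2 value of -1.14, and -1.23 over the 4. In the authors' deposited table the FDR was 0.00199 for Gdf5, 0.0051 for Nog, 0.0115 for Bmpr1b and 0.0254 for Prg4, and every listed gene was at least 1 away from 0 on the log2 scale. Gdf5, Nog and Bmpr1b lay just inside that bound and Prg4 further in. With TMM over the listed genes, which moved the median gene here by 1.07, the 4 values ran from -0.69 for Prg4 to -0.0079 for Nog.

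**Figure D3:**
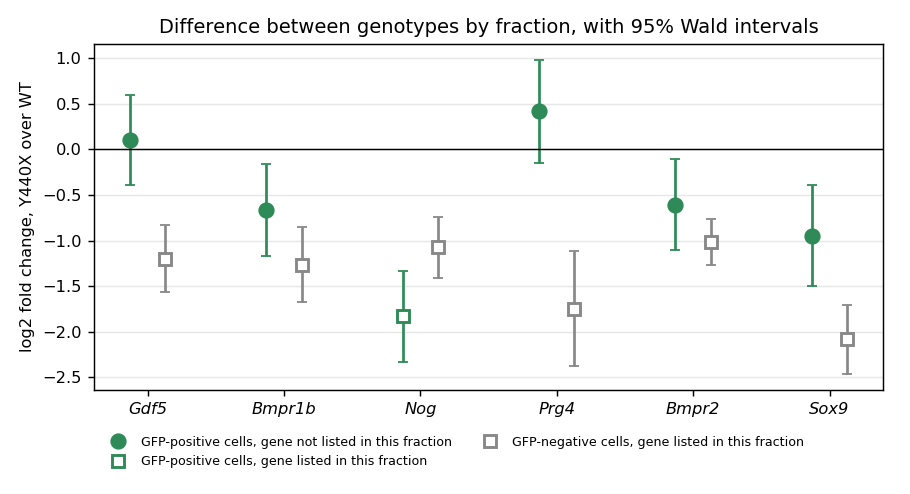
Log2 fold change of Y440X over WT in GFP-positive (green) and GFP-negative cells (grey) for the 4 genes, Bmpr2 and Sox9, with 95% Wald intervals from edgeR; open squares are genes that the authors list for that fraction. Gdf5 (0.10) and Prg4 (0.42) lie near or above 0 in GFP-positive and below -1 in GFP-negative cells, while Nog is lower in GFP-positive (-1.83) than in GFP-negative cells (-1.08).

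Whether the genotype difference itself differed between fractions was tested as an interaction over all 8 libraries. The GFP-negative side of it was selected by the listing for all 4 genes, and for Nog the GFP-positive side as well, so the p-values are not independent of how the genes were chosen. The Y440X over WT difference was higher in GFP-positive than in GFP-negative cells by 1.30 ± 0.28 on the log2 scale for Gdf5 (edgeR adjusted p = 0.0029) and by 2.17 ± 0.50 for Prg4 (edgeR adjusted p = 0.0039). For Nog it was lower in GFP-positive cells (log2 -0.75 ± 0.29, edgeR adjusted p = 0.046), a call kept in 1 of 8 fits that left out 1 library (edgeR adjusted p from 0.026 to 0.181) and larger under the other scalings, at -1.37 with TMM and -1.21 with DESeq2's own size factors. For Bmpr1b it did not pass (log2 0.60 ± 0.33, edgeR adjusted p = 0.13), but did with limb as a replicate block (0.59, edgeR adjusted p = 0.039). The test called 49.9% of all genes and 3 of the 4, which is near that share. The Gdf5 call was lost with TMM over the listed genes (0.67, edgeR adjusted p = 0.058) and the Prg4 call with limma on log2(RPKM + 1) (0.60, limma adjusted p = 0.085). A gene that is lower outside the gate and not inside it was common in these tables. Of the 370 genes listed as lower in GFP-negative and not listed in GFP-positive cells, 160 (43.2%) lay above 0 in GFP-positive cells.

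Ratios between genes of a library do not depend on scaling. The Gdf5 over Nog ratio, in reads per kilobase, was 0.580 and 0.599 in the WT GFP-positive libraries and 2.43 and 2.12 in the Y440X ones. It was 0.843 and 0.650 in WT GFP-negative and 0.654 and 0.714 in Y440X GFP-negative libraries. Ligand message thus exceeded antagonist message per kilobase in the 2 Y440X GFP-positive libraries and fell short of it in the other 6. The group means were 0.589 ± 0.0129, 2.27 ± 0.220, 0.747 ± 0.137 and 0.684 ± 0.0424 in that order (SD, n = 2). Since the listing chose Nog on this genotype contrast, the ratio is given without a test.

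The Gdf5 over Bmpr1b ratio was 1.92 and 2.51 in WT GFP-positive, 3.06 and 4.48 in Y440X GFP-positive, 2.11 and 2.43 in WT GFP-negative and 2.30 and 2.40 in Y440X GFP-negative libraries. It too was highest in the Y440X GFP-positive libraries, which did not overlap with the others. The other 3 groups overlapped, with means from 2.22 to 2.35.

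**Figure D4:**
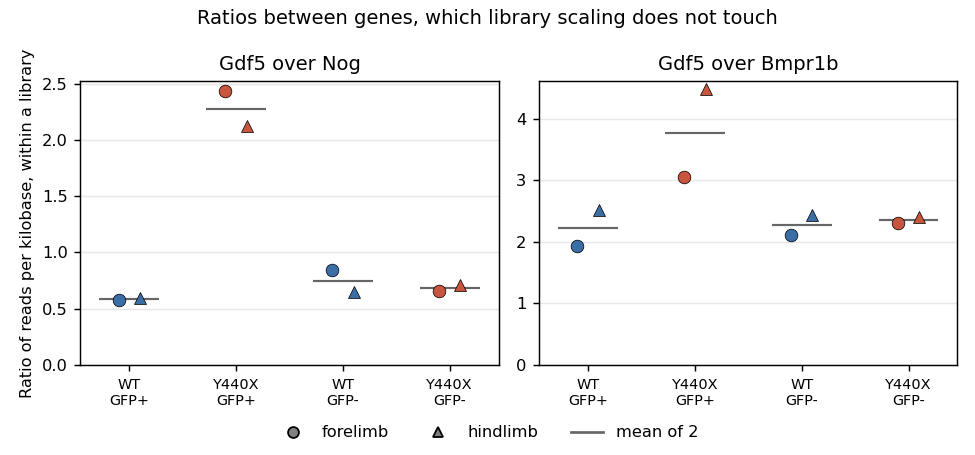
Ratio of reads per kilobase of Gdf5 to Nog and of Gdf5 to Bmpr1b in each library, with circles for forelimb, triangles for hindlimb and a line at the mean of 2. The Gdf5 to Nog ratio lies between 0.580 and 0.843 in 6 libraries and at 2.43 and 2.12 in the Y440X GFP-positive libraries.

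Markers of other cell types moved with genotype in the same libraries. In GFP-negative libraries the summed level of 8 macrophage markers of 9 in the list was 375 to 428 CPM in WT and 84.6 to 106 CPM in Y440X. That of 7 endothelial markers of 9 was 218 to 226 and 95.4 to 96.9 CPM, that of 5 muscle markers of 9 was 107 to 108 and 42.4 to 52.4 CPM, and that of 2 perichondrium and bone markers of 7 was 15.1 to 23.1 and 5.80 to 7.06 CPM. Higher in Y440X there were 6 epithelial markers of 8, at 38.5 to 40.0 and 90.2 to 109 CPM, and 2 red cell markers of 4, at 11.4 to 13.2 and 42.9 to 44.7 CPM. The 5 Schwann cell markers of 7 overlapped, at 21.8 to 29.9 and 14.2 to 25.6 CPM. Cartilage markers summed to 375 to 438 CPM in WT GFP-negative and to 235 to 260 CPM in Y440X GFP-negative libraries. In GFP-positive libraries the 11 cartilage markers of 12 summed to 29852 to 44451 CPM in WT and to 9669 to 12818 CPM in Y440X, and the Schwann cell markers to 61.2 to 73.4 and 16.5 to 22.1 CPM. The epithelial markers summed to 17.8 to 17.9 CPM in WT and 47.9 to 69.6 CPM in Y440X there, and the perichondrium and bone markers to 13.6 to 16.4 and 28.6 to 32.0 CPM. Muscle, endothelial, macrophage and red cell markers summed to 18.9 CPM or less in every GFP-positive library. None of these markers was at 0, and those in the tables are there because the authors listed them. Their part in the differences of Gdf5, Bmpr1b, Nog and Prg4 was not tested.

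Limb was compared with 4 hindlimb against 4 forelimb libraries, 1 pair per group. In edgeR's test 0 of the 4 genes passed, against 5.14% of all genes (38 of 739), and 1, Bmpr1b, had an unadjusted p under 0.05. DESeq2 and limma also called 0 of the 4. Bmpr1b was lower in hindlimb in 4 of 4 pairs (log2 -0.33 ± 0.11, edgeR adjusted p = 0.11). Prg4 was higher in hindlimb in 3 of 4 pairs (log2 0.39 ± 0.20, edgeR adjusted p = 0.29), and in the 4 GFP-positive libraries alone its hindlimb level was higher by 0.69 on the log2 scale (edgeR adjusted p = 0.037). Without either Y440X GFP-positive library the Prg4 limb difference over the rest was 0.11. Gdf5 (log2 -0.02 ± 0.12, edgeR adjusted p = 0.95) and Nog (log2 0.08 ± 0.12, edgeR adjusted p = 0.75) lay near 0.

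Little else of either pathway is in the tables. Of a list of 24 joint interzone genes, 2 are listed, Gdf5 and Prg4, and both are lower in GFP-negative cells. Of 62 BMP pathway genes 4 are listed: 1 of 14 ligands (Gdf5), 2 of 11 receptors and co-receptors (Bmpr1b and Bmpr2), 1 of 16 antagonists (Nog), 0 of 8 intracellular transducers and 0 of 13 targets. All 4 are listed as lower in GFP-negative cells, 1 of them, Nog, also as lower in GFP-positive cells, and 0 as higher. Among all listed genes, 425 of 510 are lower in GFP-negative cells and 227 of 303 in GFP-positive cells. These directions are thus near those of the tables at large. The share of all expressed genes that are listed is not known here, so the counts do not show whether either pathway was spared. The other genes of both lists were not analysed here.

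The pattern over the 8 libraries was described by Pearson's r of log2(CPM + 0.5), over the 541 genes with a mean of at least 1 CPM. The libraries share fraction, genotype and limb, so r mostly follows 4 groups and is given without a test. Gdf5 and Prg4 ran closely together (r = 0.974), as did Gdf5 and Bmpr1b (0.977), while Nog was further from Gdf5 (0.877) and Prg4 (0.834) than from Bmpr1b (0.936). The genes most like Gdf5 were Slc9a2, a sodium-proton exchanger (0.993), the secreted cartilage protein gene Mia (0.989), the receptor kinase Erbb4 (0.987), the noncoding Foxd2os (0.986) and the SOX factor Sox6 (0.986). Among those most like Prg4 were Gdf5 itself, Slc9a2 (0.968), Foxd2os (0.963) and Fhdc1 (0.963).

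Nog was most like the potassium channel Kcnk5 (0.988), the SOX factor Sox8 (0.987), Rgs3 (0.985), the lipase Mgll (0.984) and Psma8 (0.984). Bmpr1b was most like the forkhead factor Foxc2 (0.996), the proteoglycan Acan (0.996), Foxc1 (0.994), Sox9 (0.994) and Mia (0.993).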

How the data were processed

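The labels' protocols describe a stranded mRNA kit. featureCounts, edgeR 3.36.0, GRCm38 and mm10 appear in the submitters' processing notes, and no aligner is named in the sources used here. Although the file headers label the per-library columns RPKM, what the authors deposited are whole-number read counts. The deposited tables also hold gene length (other), and the authors' log2 fold change, log2 average CPM, F statistic (a score), p-value and FDR of 739 genes, all with an FDR under 0.05. Genes outside the tables were not analysed here.

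Effective library sizes (38842000 to 50717000 reads) came from a least-squares solution of the deposited log2 values of 623 genes with at least 200 counts, with a median absolute residual of 0.000475 in log2 fold change. CPM and RPKM were computed from them. The number of sample columns left unused was 0. edgeR 4.0.16 (R 4.3.3) quasi-likelihood tests, two-sided, were fitted on all 739 genes and adjusted over them by Benjamini-Hochberg at 0.05; genotype and fraction compared 2 libraries with 2. Standard errors are Wald errors. Forelimb and hindlimb are the replicates, per the series' design text, so p-values mix limb difference with technical spread. The scripts were tested on simulated data.

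The 4 genes and the lists were chosen with earlier results of these data known. Genes named beside them are Sox9, pathway and marker genes of those lists, and the 5 of highest correlation per gene, of which 1 is not reported here; Gm15557 and Tpr were named for their overlap after values were seen. The fractions of a limb were sorted from 1 pool, so the limb pairs them. Deviations of same-limb libraries correlated at 0.135 between fractions in WT and 0.222 in Y440X, and at 0.446 and 0.478 between genotypes within the GFP-positive and the GFP-negative fraction (541 genes). Alternatives were TMM over the listed genes, DESeq2 1.42.0 with solved or own size factors, a filter at 1 CPM, limma 3.58.1 on log2(RPKM + 1) and log2(RPKM + 0.1), limb as a block, and each library left out.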

Additional observations from a re-analysis of the deposited data

Results flagged for a closer look

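The interaction of fraction and genotype, by edgeR's quasi-likelihood test over all 8 libraries, passed for 3 of the 4 genes and for 49.9% of all 739, so 3 of 4 is near the share over all genes. For Gdf5 the Y440X over WT value was higher in GFP-positive than in GFP-negative cells by 1.30 on the log2 scale (adjusted p = 0.0029, and 0.058 with TMM over the listed genes), in 2 of 2 limbs. For Prg4 it was higher by 2.17 (adjusted p = 0.0039, and 0.085 in limma with a pseudocount of 1), in 2 of 2 limbs. For Nog it was -0.75 (adjusted p = 0.046), in 2 of 2 limbs, and the call was kept in 1 of 8 fits that left out a library. The genotype difference outside the gate put all 4 genes into the tables, and for Nog the difference inside it did as well. These p-values are therefore computed on genes selected with part of the contrast they test, and the values are given as a description.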

How the results depend on the processing

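Over the 24 values (4 genes in 6 comparisons) 323 alternatives were computed, and 278 kept the direction and the side of the threshold. All 96 for the fraction comparisons did, though Prg4 shrank to 0.79 in WT and 1.39 in Y440X with limma and a pseudocount of 1. The scalings over the listed genes changed the genotype calls of all 4 genes outside the gate and of all but Nog inside it. These scalings centre genes chosen for being mostly lower in Y440X. In GFP-positive cells TMM put Gdf5 at 0.78, Prg4 at 1.09, Bmpr1b at 0.0079 and Nog at -1.15, and DESeq2 with its own size factors put them at 0.70, 1.02, -0.073 and -1.23. In GFP-negative cells TMM put Gdf5 at -0.12, Prg4 at -0.69, Nog at -0.0079 and Bmpr1b at -0.18, and DESeq2 with its own size factors at -0.12, -0.70, -0.010 and -0.18. TMM moved the interaction to 0.67 for Gdf5 (adjusted p = 0.058), 1.57 for Prg4 (0.018), -0.036 for Bmpr1b and -1.37 for Nog (0.0030), and DESeq2's own factors put Nog at -1.21 (0.0016). It moved the median gene by 0.65 inside and 1.07 outside the gate, 0.37 for fraction in WT and -0.63 for the interaction, and DESeq2's own factors by 0.58 and 1.07 in the first pair. Under TMM 57.9% of the genotype calls inside the gate and 63.6% of those outside it were higher. With the solved sizes 117 were higher and 296 lower inside, and 94 higher and 497 lower outside.

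Bmpr1b in GFP-positive cells was no longer called with limma, at -0.62 with a pseudocount of 1 and -0.65 with 0.1, nor when adjusted over the genes not listed there (-0.66). limma with a pseudocount of 1 put the Prg4 interaction at 0.60 (adjusted p = 0.085); the cause was not tested. With limb as a replicate block the Bmpr1b interaction was called (0.59), and the block changed no other call of the 4 genes.

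With 1 library left out, and the lone library assumed to vary like the others, GFP-positive values ran from -0.033 to 0.23 for Gdf5, from -0.16 to 0.83 for Prg4 and from -0.86 to -0.43 for Bmpr1b, and the Nog interaction from -1.00 to -0.54. Without WT GFP-positive forelimb 227 genes were called in that fraction, against 413.

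For limb, none of the 4 was called in the fit of all libraries. Gdf5 turned to 0.045 with TMM, 0.095 with DESeq2's own factors, 0.077 with no replicate block and 0.11 in GFP-positive libraries alone. In GFP-negative libraries alone Prg4 was at -0.088 and Nog at -0.020, and in GFP-positive libraries alone Prg4 was called at 0.69. With libraries left out Gdf5 ran from -0.12 to 0.068, Nog from -0.046 to 0.15 and Prg4 from 0.11 to 0.55. Depth limits Prg4 most, with 22 to 93 reads per GFP-negative library.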

Other observations

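Within the pathway, 2 further ratios per kilobase follow. Nog over Bmpr1b, antagonist over receptor, was 3.32 and 4.19 in WT GFP-positive, 1.26 and 2.11 in Y440X GFP-positive, 2.50 and 3.74 in WT GFP-negative and 3.52 and 3.36 in Y440X GFP-negative libraries. It was lowest in the Y440X GFP-positive libraries, which did not overlap with the other 6. The listing chose Nog as lower on the GFP-positive genotype contrast, so this ratio too is given without a test. Prg4 over Gdf5 lay between 0.0226 and 0.0531 in all 8 libraries, and its 4 groups had means of 0.0266 ± 0.00562 in WT GFP-positive, 0.0322 ± 0.0113 in Y440X GFP-positive, 0.0459 ± 0.0103 in WT GFP-negative and 0.0306 ± 0.00899 in Y440X GFP-negative cells (SD, n = 2).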
